A study of Mus musculus with 20 samples.

Results

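Immunoglobulin and B cell transcripts were followed through the quadriceps of aged mice by 9 genes: Igkc, Ighm, Igha, Jchain, Mzb1, Cd79a, Cd79b, Ms4a1 and Cd72. They were 9 of the 55416 genes listed in the counts, and all 9 had a count in at least 1 muscle. They were chosen by measured values of these same muscles, the counts per muscle and the difference between secretome-treated and control quadriceps. Their values between treatments are therefore a description and carry no p-value.

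The muscles came from male wild-type C57BL/6J mice, 26 to 28 months old, that were fasted and sampled 3 h after a single injection into the quadriceps. Control mice (n = 10) received 50 µL of saline, and Secretome mice (n = 10) received 50 µL of a cell-free secretome, the factors that pluripotent stem cells of human origin release into their medium. Every mouse was thus aged and had a needle passed into the muscle, and no uninjected, young or female muscle was analysed here. Total RNA of whole muscle was sequenced after ribosomal RNA was depleted, and the reads assigned to genes numbered 13286983 to 22987237 in a muscle. In such bulk RNA, fewer cells of a type and less RNA per cell cannot be told apart. The share of reads on Ttn, the gene of the giant sarcomere protein titin, fell into 3 ranges of the library numbers: 7.02% to 11.03% in libraries 1 to 5, all Control, 16.4% to 21.1% in libraries 6 to 15, Control 6 to 10 and Secretome 1 to 5, and 14.2% to 14.7% in libraries 16 to 20, all Secretome. Fold changes within libraries 6 to 15, the range that holds both treatments, are given beside those of all muscles for that reason. The summed level of 8 skeletal muscle fibre genes, among them Acta1 and Ckm, was 75345 to 134985 CPM (read counts scaled to library size, with TMM factors) in the 20 muscles, as the label of the tissue has it.

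Immunoglobulins are made by B cells and, in far larger amounts, by plasma cells, the secreting cells into which B cells mature. Each antibody joins a heavy chain to a light chain, and each chain joins a variable segment, picked by gene rearrangement in every B cell clone, to a constant region that sets the class. Ighm is the heavy chain constant region of IgM, Igha that of IgA, and Igkc the constant region of the kappa light chain, the main light chain of mice. Jchain links IgM and IgA into polymers, and Mzb1 is a chaperone of the endoplasmic reticulum that helps to assemble and secrete IgM. Cd79a and Cd79b are the signalling pair of the B cell receptor, Ms4a1 encodes CD20, a surface protein of mature B cells that plasma cells lose, and Cd72 is an inhibitory co-receptor of B cells. In healthy muscle these cells are few, and blood left in the vessels and fat or lymphoid tissue beside the muscle also contain them.

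The sequences below are shown because Igkc differed most between muscles and a few variable segments held much of the variable segment reads. Each is the start of the coding sequence in the GENCODE M21 transcripts, on build GRCm38, whereas the reads were counted on GRCm39. Igkc lies on the plus strand at chr6:70726435-70726966, Igkv3-2 at chr6:70698449-70699067 and Igkv3-5 at chr6:70663275-70663895, both plus. Ighv1-53 lies on the minus strand at chr12:115158403-115158835. Igkv3-2 and Ighv1-53 had the most reads of the kappa and the heavy variable segments, and Igkv3-5 is the close relative of Igkv3-2. Capitals mark the 22 of the 300 bases at which Igkv3-2 and Igkv3-5 differ.
Igkv3-2: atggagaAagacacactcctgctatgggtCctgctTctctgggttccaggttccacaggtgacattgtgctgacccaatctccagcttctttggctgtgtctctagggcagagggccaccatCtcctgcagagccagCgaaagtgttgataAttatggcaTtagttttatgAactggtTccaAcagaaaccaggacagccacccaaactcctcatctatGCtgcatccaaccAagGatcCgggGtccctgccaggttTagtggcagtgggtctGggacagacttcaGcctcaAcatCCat
Igkv3-5: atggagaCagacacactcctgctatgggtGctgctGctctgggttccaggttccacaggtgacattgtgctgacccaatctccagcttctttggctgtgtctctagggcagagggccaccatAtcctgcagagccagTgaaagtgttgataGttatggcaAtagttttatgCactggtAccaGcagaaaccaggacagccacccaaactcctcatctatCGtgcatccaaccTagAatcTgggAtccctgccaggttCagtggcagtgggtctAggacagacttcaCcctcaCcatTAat
Igkc: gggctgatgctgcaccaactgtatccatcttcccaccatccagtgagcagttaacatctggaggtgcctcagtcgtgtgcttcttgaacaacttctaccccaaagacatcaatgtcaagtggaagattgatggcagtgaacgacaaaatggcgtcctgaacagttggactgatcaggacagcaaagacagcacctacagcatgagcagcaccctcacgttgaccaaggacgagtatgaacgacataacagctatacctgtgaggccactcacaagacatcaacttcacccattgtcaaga
Ighv1-53: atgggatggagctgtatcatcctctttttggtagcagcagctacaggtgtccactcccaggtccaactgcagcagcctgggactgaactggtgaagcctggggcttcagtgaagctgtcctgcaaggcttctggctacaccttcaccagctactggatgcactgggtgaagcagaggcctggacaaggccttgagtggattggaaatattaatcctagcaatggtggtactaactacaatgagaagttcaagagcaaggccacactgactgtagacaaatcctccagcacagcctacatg
Igkv3-2 and Igkv3-5 were identical at 278 of these 300 bases and at 91.1% of their aligned coding bases. Reads that fit both can be split or dropped by the counting, so counts of single variable segments are uncertain and those of the constant regions less so. Clonal joining and mutation in B cells also change these segments, and the sequences are those of the reference, not of the reads.

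The kappa light chain had the widest spread of the 9 genes, with an SD of log2 CPM (prior count 2) of 2.69 among controls and 2.11 among secretome-treated muscles. Igkc was counted at 24 to 3924 reads in control muscle, with a median of 539.5, and at 0 to 143 reads in secretome-treated muscle, with a median of 72.0. Control 6 (3924), Control 1 (3244), Control 7 (2017), Control 3 (1600), Control 4 (587) and Control 9 (492) lay above every secretome-treated muscle. The other 4 controls, with 24, 38, 55 and 70 reads, lay within the range of the secretome-treated muscles, so the groups overlapped. Scaled to library size, Igkc averaged 62.1 ± 70.9 CPM in control compared to 3.79 ± 3.25 CPM in treated quadriceps (mean ± SD over 10 mice in each group). The log2 fold change, secretome-treated over control, came to -4.04 with a standard error of 0.922. The SD of the controls exceeded their mean. All 10 secretome-treated muscles lay below the control median of 30.8 CPM. Secretome 9 had no Igkc read in its library, which allows up to 3 reads by counting error alone, or 0.146 CPM when scaled without TMM factors. In libraries 6 to 15, Igkc averaged 63.2 ± 78.3 CPM in the 5 controls and 3.66 ± 3.16 CPM in the 5 secretome-treated muscles. The log2 fold change there came to -4.11 with a standard error of 1.38 (-3.20 without Control 6), and 2 of these 5 secretome-treated muscles lay below the lowest of these controls.

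**Figure D1:**
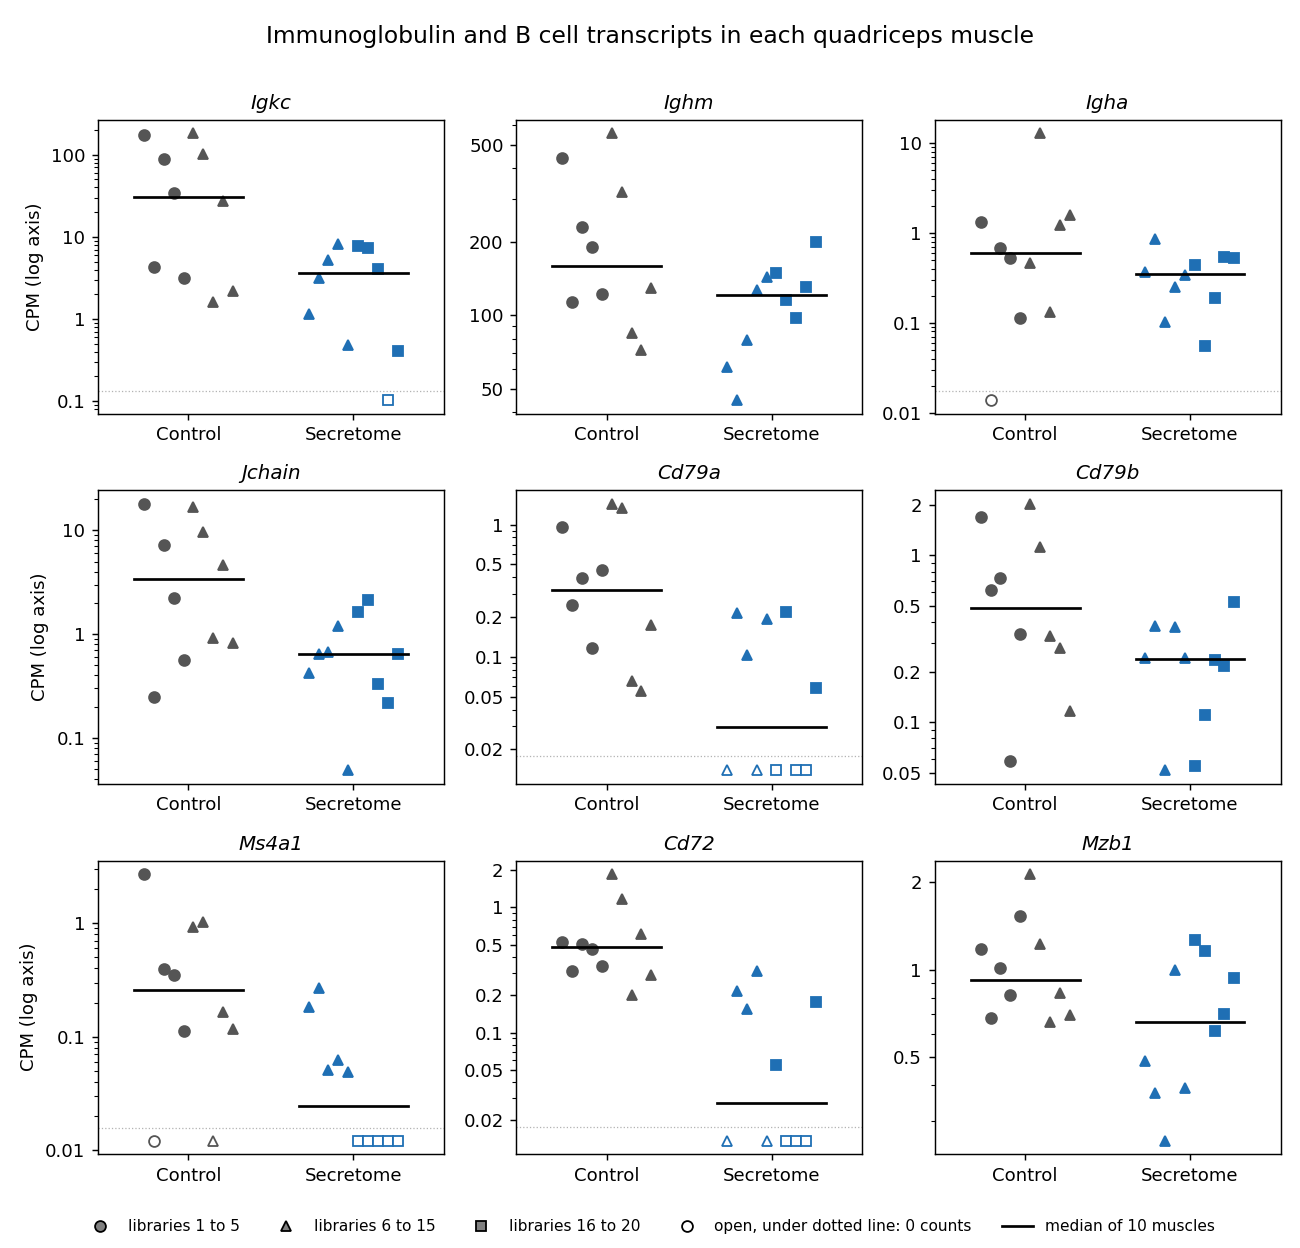
CPM of each of the 9 genes on log axes, 1 point per muscle (grey Control, blue Secretome, n = 10 each), with the marker showing the range of library numbers and open points under the dotted line standing for 0 counts. For Igkc, 6 controls lie above all secretome-treated muscles and 4 lie among them, while for Mzb1 only 2 controls lie above them.

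The IgM heavy chain varied less and kept a floor in every muscle. Ighm counts were 1282 to 11966 in control muscle (median 2742.5) and 835 to 3415 in secretome-treated muscle (median 2070). Control 6 (11966), Control 1 (8273), Control 7 (6244) and Control 3 (4068) lay above all secretome-treated muscles, and the other 6 controls lay among them. The means were 225.5 ± 163.9 and 114.7 ± 45.9 CPM. The log2 fold change of Ighm came to -0.98 (standard error 0.357), and within libraries 6 to 15 it was -1.33 (standard error 0.615, and -0.72 without Control 6). Secretome 9, with no Igkc read, still had 2420 Ighm reads, and Secretome 10, with 7 Igkc reads, had 3415. For every 100 Ighm reads, control muscle had 1.70 to 39.3 Igkc reads (median 25.2) and secretome-treated muscle 0 to 7.07 (median 4.70). Reads on heavy chain variable segments were likewise few in those muscles, 2 in Secretome 9 and 0 in Secretome 10, compared to 788 in Control 6. Per kilobase of exon, the median level of Ighm was 84.7 CPM in control and 63.9 CPM in secretome-treated muscle, and that of Igkc was 57.8 and 6.76 CPM. What the Ighm reads of muscles without kappa or variable segment reads come from was not tested.

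**Figure D2:**
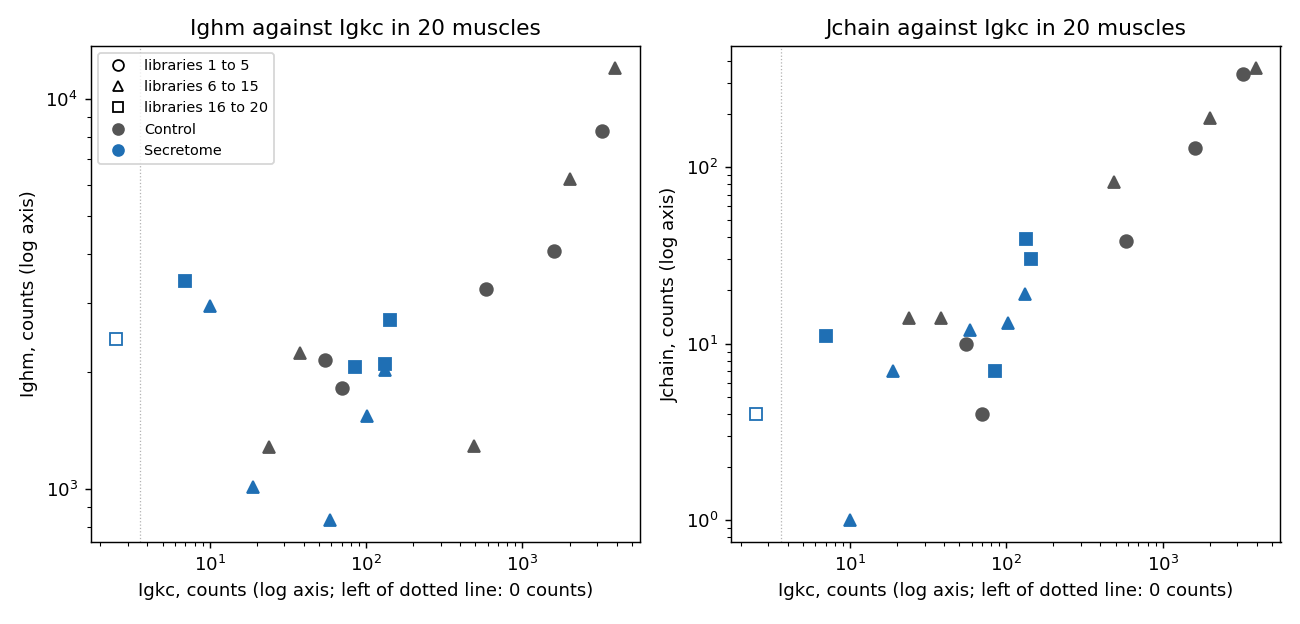
Counts of Ighm (left) and Jchain (right) against counts of Igkc in the 20 muscles on log axes, with grey for Control, blue for Secretome, and the marker for the range of library numbers. Ighm stays between 835 and 3415 in all secretome-treated muscles while Igkc runs from 0 to 143, and Jchain rises from 1 to 364 reads along with Igkc.

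Jchain and Mzb1, the transcripts of antibody assembly, had unlike spreads over all muscles. Jchain was counted at 4 to 364 reads in control muscle and at 1 to 39 reads in secretome-treated muscle. Its 3 highest muscles were Control 6 (364), Control 1 (338) and Control 7 (190), the same 3 as for Igkc. In CPM, 6 controls lay above every secretome-treated muscle and 4 lay within their range. It averaged 6.13 ± 6.75 CPM compared to 0.796 ± 0.667 CPM, with log2 fold changes of -2.96 (standard error 0.714) over all muscles and of -3.49 (standard error 0.939, and -2.77 without Control 6) within libraries 6 to 15, where 4 of 5 secretome-treated muscles lay below the lowest control. Mzb1 was counted in all 20 muscles, at 10 to 46 reads in control and 5 to 23 reads in secretome-treated muscle. Its means of 1.08 ± 0.467 and 0.718 ± 0.352 CPM differed by less than the SD of the controls. Only Control 6 and Control 5 lay above all secretome-treated muscles, and the log2 fold change was -0.60 (standard error 0.290). Within libraries 6 to 15 it was -1.17 (standard error 0.436), and 4 of 5 secretome-treated muscles there lay below the lowest control. Mzb1 shares 695 of its 1215 exonic bases with another gene on the same strand in GENCODE M21, SPATA24. Reads on the shared bases may be of that gene or may have been dropped. How the counting treated them was not given in the sources used here.

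Igha was seen mostly in 1 muscle. Control 7 had 251 of the 427 Igha reads of the series, and no other muscle had more than 27. The median was 11 reads in control and 6.5 in secretome-treated muscle, and the medians in CPM were 0.60 and 0.353. Only Control 2 had none. Fitted without a filter on low counts, the log2 fold change was -2.35 (standard error 0.835), and within libraries 6 to 15 it was -3.06 (standard error 1.23). The counts of Control 7 enter both values, and no fit without Control 7 gave a value for Igha.

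Transcripts of the B cell surface were rare. Cd79a was counted at 1 to 31 reads in the 10 controls and at 0 to 4 reads in secretome-treated muscle, where 5 of 10 had none. Cd79b was counted in all 20 muscles, at 1 to 44 reads in control and 1 to 9 in secretome-treated muscle. Control 6 (44), Control 1 (32) and Control 7 (22) were the highest for Cd79b, and Control 6 (31), Control 7 (26) and Control 1 (18) for Cd79a. Ms4a1 reached 51 reads in Control 1 and 20 in Control 6 and in Control 7, was 0 in 2 controls, and was 0 to 5 in secretome-treated muscle, with no read in Secretome 6 to 10. Cd72 was counted at 3 to 40 reads in control and 0 to 5 in secretome-treated muscle. Of these 4 genes, Cd72 overlapped least when scaled to CPM, with 7 of 10 controls above all secretome-treated muscles, compared to 6 for Cd79a and 5 each for Cd79b and Ms4a1. In GENCODE M21, 1423 of the 3422 exonic bases of Cd72 lie opposite exons of Tesk1, and whether the counting used the strand was not given in the sources used here.

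The 4 surface genes had few reads, and none of them passed the filter on low counts in the edgeR fit. Without that filter, the log2 fold changes were -2.61 (standard error 0.657) for Cd79a, -1.58 (0.483) for Cd79b, -3.14 (0.854) for Ms4a1 and -2.74 (0.564) for Cd72. Within libraries 6 to 15 they were -2.47, -1.62, -1.86 and -2.60 in the same order. A count of at least 5 reads was reached by Cd79a in 5 controls and 0 secretome-treated muscles, by Cd79b in 8 and 5, by Ms4a1 in 5 and 1, and by Cd72 in 9 and 1. After all libraries were thinned to the total of the shallowest, Cd79a was found in 13 in place of 15 muscles, and the other 8 genes in as many muscles as before.

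**Figure D3:**
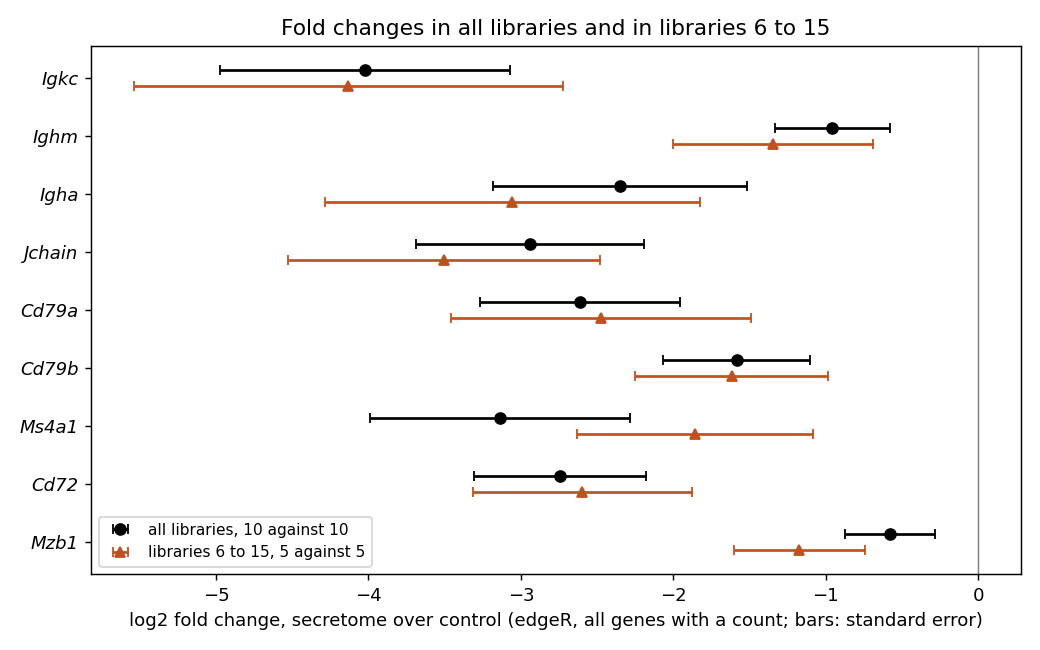
Log2 fold change of each gene, secretome-treated over control, with its standard error as a bar, from the edgeR fit of every gene with a count, over all 20 muscles (black circles) and over libraries 6 to 15 (orange triangles). All 18 estimates are below 0, from -0.58 for Mzb1 over all muscles to -4.13 for Igkc within libraries 6 to 15.

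Against all genes, the edgeR quasi-likelihood test called 1 of 14471 genes at a 5% false discovery rate (0.00691%), the plexin receptor gene Plxnb2, and 2277 genes had an unadjusted p under 0.05. Of the 9 genes described here 4 passed the filter (Igkc, Ighm, Jchain and Mzb1), of which 0 were called. Within libraries 6 to 15, 0 of 14469 genes were called (0%), with 1439 at an unadjusted p under 0.05, and again 0 of the same 4. DESeq2, the program of the study, called 216 of 17310 genes (1.25%), among them 5 of the 9: Igkc, Jchain, Cd79a, Ms4a1 and Cd72. Within libraries 6 to 15 it called 37 of 15488 genes (0.239%) and 0 of the 7 that had an adjusted p. Since the 9 genes were chosen from this difference, nothing is read from these counts.

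The other constant regions told the classes of antibody apart. Ighg2c, of IgG2c, was counted in all 20 muscles and, like Ighm, kept a floor, with 61 to 609 reads in control and 124 to 550 reads in secretome-treated muscle. The log2 fold change between treatments was -0.05 with a standard error of 0.313 (edgeR quasi-likelihood test, adjusted p = 0.946), and it was 0.24 within libraries 6 to 15. Ighg2b, of IgG2b, ranged from 0 to 436 reads in control and 0 to 66 in secretome-treated muscle, with the most in Control 4, a muscle with 587 Igkc reads. For Ighg2b it was -3.08 with a standard error of 0.966 (edgeR, adjusted p = 0.172), and -3.30 within libraries 6 to 15. Of the 130 Ighg1 reads, 101 came from Control 1 and 20 from Control 6, and of the 129 Ighg3 reads 43 came from Control 3, 35 from Control 6 and 21 each from Control 1 and Secretome 8. Ighd, the IgD constant region that naive B cells carry, was counted at 2 to 37 reads in control and 0 to 9 in secretome-treated muscle, and Ighe, of IgE, had 2 reads in all. Antibody classes thus differed from muscle to muscle among the controls with many Igkc reads. Light chain reads were nearly all kappa in both treatments: kappa made up 96.8% to 99.6% of light chain constant reads in the 6 controls with at least 100 such reads and 95% to 100% in the 4 such secretome-treated muscles. The widest Wilson 95% interval among these, that of Secretome 7, ran from 90.0% to 97.6%. The 3 lambda constant regions Iglc1, Iglc2 and Iglc3 had 144, 75 and 55 reads in all, and 87 of the Iglc1 reads were from Control 6.

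**Figure D4:**
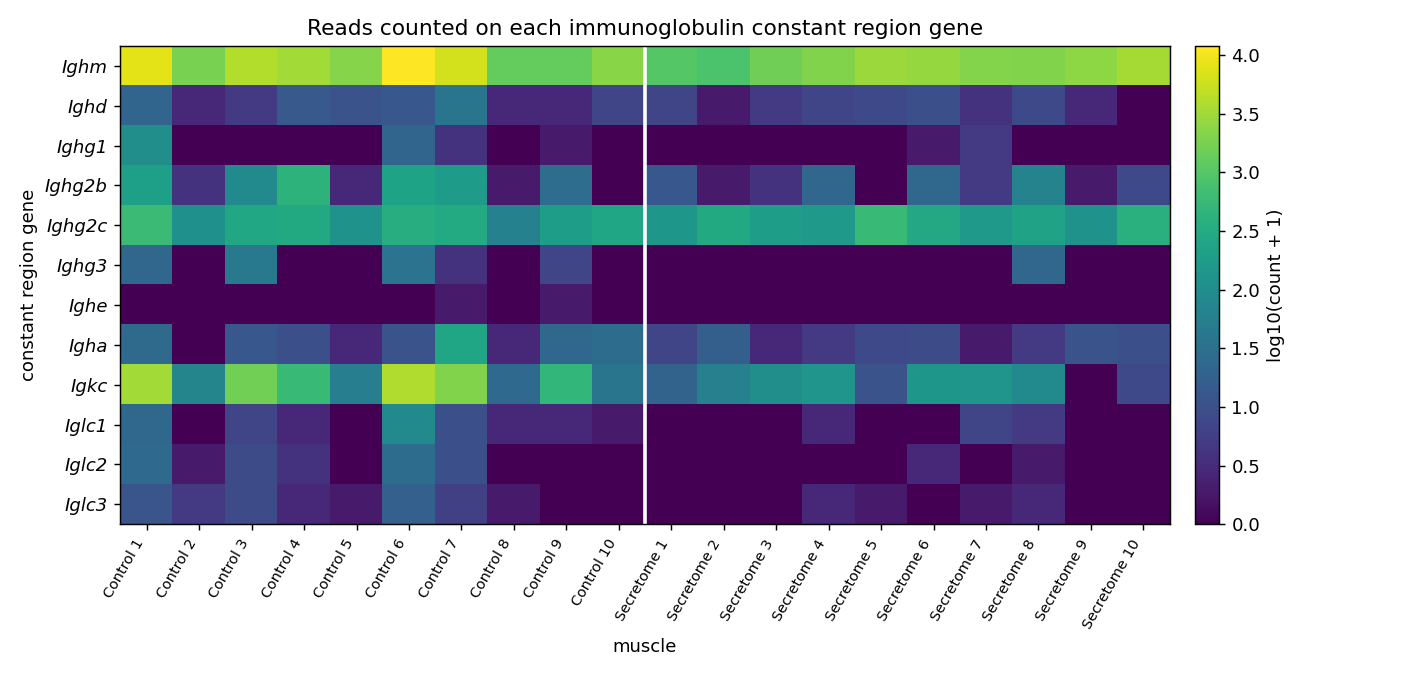
Reads on each of the 12 immunoglobulin constant region genes (rows) in each of the 20 muscles (columns, Control left of the white line, Secretome right), coloured by log10 of the count plus 1. Ighm and Ighg2c are present in every column, whereas Igkc exceeds 143 reads in 6 Control columns and in no Secretome column.

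Variable segments were spread over many genes, and a different one led in different muscles. Of 160 kappa variable segments listed, 79 had a read, 77 in controls and 47 in secretome-treated muscle, with 4599 and 334 reads. Of 185 heavy chain segments, 83 had a read, 80 in controls and 40 in secretome-treated muscle, with 2386 and 238 reads. Fewer reads also find fewer segments, and the difference in the number of segments was not tested apart from depth. The most read kappa segment was Igkv3-2, with 1780 reads in 14 muscles, or 36.1% of all kappa variable reads, followed by Igkv6-20 (306 reads) and Igkv3-5 (217 reads). The most read heavy segments were Ighv1-53 (388 reads), Ighv14-4 (272 reads) and Ighv1-26 (249 reads), each with under 15% of heavy variable reads.

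Within a muscle, Igkv3-2 made up 55.6% of the 1485 kappa variable reads of Control 6 (Wilson 95% interval 53.0% to 58.1%), compared to 38.2% in Control 7 (35.3% to 41.2%), 26.8% in Control 1 (24.5% to 29.3%) and 21.2% in Control 9 (14.7% to 29.7%). The intervals of Control 6, Control 7 and Control 1 did not overlap. Other segments led elsewhere: Igkv4-72 in Control 3 with 34.4% (29.8% to 39.2%) and Igkv10-96 in Control 4 with 31.6% (25.6% to 38.2%). Some segments were almost private to a muscle, as 135 of the 156 Igkv4-72 reads came from Control 3 and 142 of the 147 Igkv4-91 reads from Control 7. For the heavy chain, Ighv14-4 led in Control 1, Control 7 and Control 9, Ighv1-55 in Control 3 (40.7%, 33.6% to 48.2%), Ighv1-26 in Control 4 (45.4%, 36.3% to 54.8%) and Ighv1-53 in Control 6 (22.3%, 19.6% to 25.4%). In Control 7 that lead was narrow, with 82 reads of Ighv14-4 and 80 of Ighv1-53. So was the kappa lead in Control 9, with 24 reads of Igkv3-2 and 23 of Igkv6-20. No secretome-treated muscle had 100 reads of either kind, so shares are not given there. These reads carry no molecular identifiers, and the intervals cover counting error only.

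**Figure D5:**
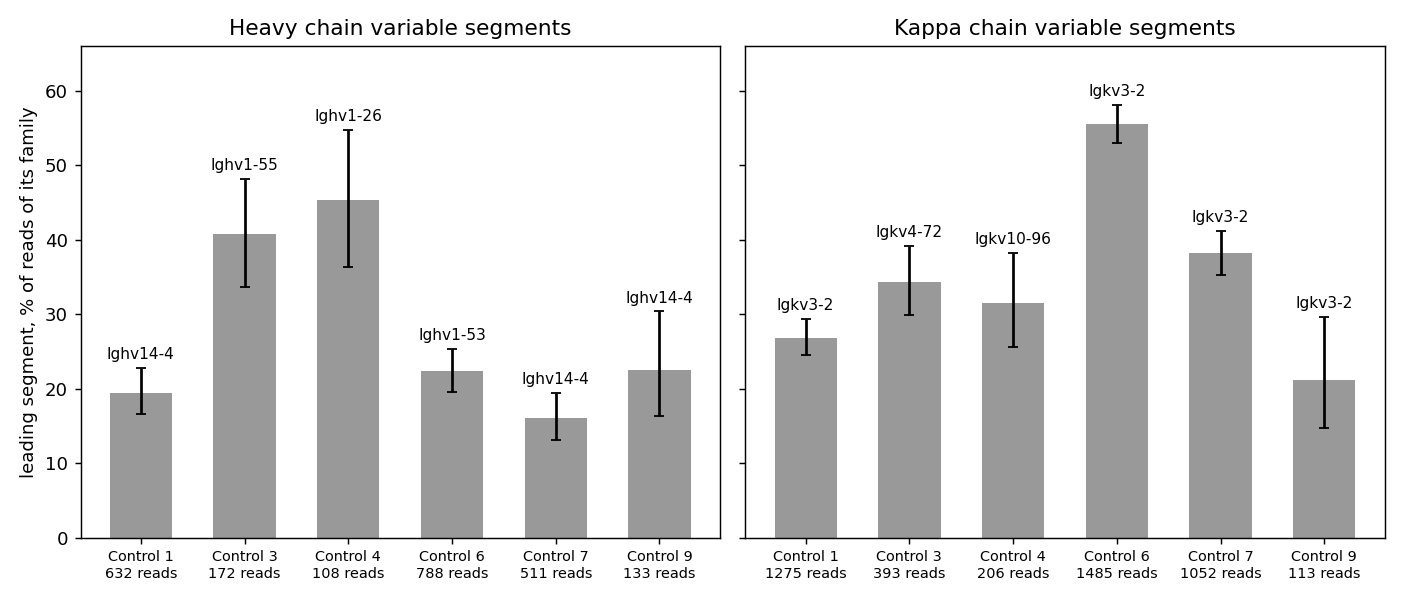
Share of the leading variable segment, named over each bar, among the heavy chain (left) and kappa chain (right) variable segment reads of the 6 control muscles with at least 100 reads of each kind. Bars start at 0, error bars are Wilson 95% intervals, and the share of the leading kappa segment runs from 21.2% in Control 9 to 55.6% in Control 6.

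To see how these transcripts varied from muscle to muscle with no use of the treatment, Igkc was related to the other 8 genes and to 4 cell marker lists within each treatment, on log2 CPM with a prior count of 2. Since the 9 genes were chosen from counts in these same muscles, the relations among them are a description and are given without p. In the 10 controls, Pearson's r of Igkc was 0.93 with Jchain, 0.89 with Ms4a1, 0.82 with Cd72 and 0.81 with Ighm, and Spearman's rho for the same 4 was 0.85, 0.90, 0.89 and 0.83. It was lower with Cd79a (r = 0.66), Cd79b (r = 0.65), Mzb1 (r = 0.58) and Igha (r = 0.53). Without the 2 controls farthest from the median of Igkc, Control 8 and Control 10, r was 0.97 with Jchain, 0.88 with Ms4a1, 0.72 with Cd72 and 0.79 with Ighm. No control lay between 4.35 and 27.3 CPM of Igkc. In the 6 controls above that gap, a division made after the values were seen, r was 0.93 with Ighm, 0.92 with Jchain, 0.94 with Cd79a, 0.93 with Cd79b, 0.85 with Ms4a1, 0.81 with Mzb1, 0.53 with Cd72 and 0.11 with Igha.

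Of the marker lists, the sum of 20 T cell genes had r = 0.76 with Igkc in the controls (adjusted p = 0.0335, permutation test, two-sided, 100000 resamples, Benjamini-Hochberg over 24 relations) and rho = 0.72 (adjusted p = 0.0822, same permutation test). Most of these 24 relations were with the other 8 genes, chosen from these same muscles. Their small p-values lower the adjusted p of the T cell sum, which is therefore a description only. The unadjusted p of its r was 0.00697 (permutation test). Thy1 had the highest mean of the 20 genes in both treatments, and the relation of Igkc with the sum without Thy1 was not tested. Without Control 8 and Control 10 the r of the T cell sum was 0.51 (adjusted p = 0.431, permutation test), and in the 6 controls above the gap it was 0.32 (adjusted p = 0.7, exact permutation test). These sets hold fewer muscles and a narrower range of Igkc. Whether the relation rests on the muscles left out was therefore not settled. With red blood cell genes, r was 0.10 in control (adjusted p = 0.828) and 0.55 in secretome-treated muscle (adjusted p = 0.229) by the permutation test. The same r was 0.35 and 0.39 with macrophage genes and 0.17 and -0.05 with adipocyte genes, all of which missed the threshold.

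In the 10 secretome-treated muscles, r of Igkc with Jchain was 0.72 and rho 0.81, and r was 0.89 without Secretome 9 and Secretome 10. With Ighm, r was -0.26 in these muscles and rho -0.15. Within 1 treatment, libraries 6 to 15 held 5 muscles, too few for a correlation. Over both treatments together they gave r = 0.97 for Igkc with Jchain and 0.87 with T cells, values that hold the difference between treatments too.

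Among 14408 tested genes with a symbol that are neither of these 9 nor immunoglobulin segments, those ranked most like Igkc over the 20 muscles were Ralgps2 (Spearman's rho 0.83), Slamf7 (0.83), Nlrp1b (0.82), Sash3 (0.80) and Mki67 (0.78). Slamf7 is a surface receptor that plasma cells carry, and Mki67 is a marker of dividing cells. Mki67 averaged 2.39 ± 1.73 CPM in control and 0.755 ± 0.408 CPM in secretome-treated muscle, and its rho with Igkc was 0.94 within control and 0.53 within secretome-treated muscle. Those most like Cd79b were A930016O22Rik (0.78), Socs1 (0.74), Gm27029 (0.73), Mst1r (0.72) and 9530056E24Rik (0.68). A930016O22Rik is annotated as antisense to Ckm, and 451 of its 2560 exonic bases lie opposite exons of that abundant muscle gene. These ranks used both treatments and are given as a description.

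Lists of genes of related roles were set beside the 9. Over all 14471 genes tested the median log2 fold change was -0.03, 1333 genes were lower and 944 higher at an unadjusted p under 0.05, and 1 was called. In none of the 11 lists was a gene called by the edgeR quasi-likelihood test. Of 28 genes of the B cell surface, signalling and transcription 13 were tested, with a median log2 fold change of -0.55 (-0.67 within libraries 6 to 15), 12 below 0 and 6 lower at an unadjusted p under 0.05. Their smallest p-values were those of Bank1, a B cell scaffold protein (1.39 ± 1.09 compared to 0.509 ± 0.249 CPM, log2 fold change -1.45, and -1.37 within libraries 6 to 15, adjusted p = 0.136), and of Pou2f2, the lymphoid factor Oct-2 (2.36 ± 0.831 compared to 1.11 ± 0.744 CPM, log2 fold change -1.09, and -0.70 within that range, adjusted p = 0.145). Cd22 and Pax5, which mark B cells, had too few reads to be tested, with 309 and 128 reads in all. Their means in CPM were 1.36 ± 1.31 and 0.523 ± 0.387 in control compared to 0.252 ± 0.170 and 0.153 ± 0.123 in secretome-treated muscle.

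Of 17 plasma cell and secretion genes 13 were tested, with a median of -0.19 (-0.04 within libraries 6 to 15), 8 below 0, and 3 lower and 1 higher at an unadjusted p under 0.05. The higher one was Dnajb9, a chaperone of the endoplasmic reticulum (27.9 ± 9.76 compared to 36.8 ± 7.22 CPM, log2 fold change 0.40, adjusted p = 0.312). Irf4, a factor of plasma cell formation, was 2.40 ± 1.19 compared to 1.32 ± 0.553 CPM (log2 fold change -0.87, and -1.17 within libraries 6 to 15, adjusted p = 0.180), and Sdc1, the plasma cell surface protein CD138 that other cells carry too, was 2.41 ± 0.821 compared to 1.62 ± 0.516 CPM (log2 fold change -0.57, and -0.69 within that range, adjusted p = 0.219). Xbp1, the factor that drives antibody secretion and that muscle also uses, was 64.2 ± 13.7 compared to 60.9 ± 9.71 CPM, and Prdm1, a factor of plasma cell maturation, was 1.11 ± 0.641 compared to 1.33 ± 0.384 CPM. Of 10 genes of B cell attraction and survival 6 were tested, with a median of -0.45 (-0.24 within libraries 6 to 15) and 3 lower at an unadjusted p under 0.05. These were led by Cxcl12, a chemokine that holds plasma cells (62.8 ± 8.91 compared to 52.8 ± 4.84 CPM, log2 fold change -0.25, and -0.23 within that range, adjusted p = 0.187), and Ccl21a, a lymphoid chemokine (6.90 ± 3.86 compared to 4.26 ± 1.49 CPM, log2 fold change -0.69, and -0.26 within that range, adjusted p = 0.258). The 2 tested constant regions outside the 9 were Ighg2b and Ighg2c.

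Markers of other cells gave the following levels beside these, and several medians moved within libraries 6 to 15. The summed level of 20 T cell genes was 6.41 to 30.8 CPM in control (median 13.8) and 5.59 to 10.2 CPM in secretome-treated muscle (median 7.82), with 4 genes tested and a median of -0.38 (-0.33 within libraries 6 to 15). Of the tested genes, Thy1 was 5.51 ± 3.49 compared to 3.42 ± 1.32 CPM (adjusted p = 0.298) and Zap70 1.32 ± 0.719 compared to 0.907 ± 0.310 CPM (adjusted p = 0.383). Thy1 had the highest mean of the 20 genes in both treatments, so the sum follows Thy1 more than any other gene of the list. Cd247 and Tcf7 were tested too, and their means were likewise lower in secretome-treated muscle. The other T cell genes had too few reads to be tested, and the mean of each was lower in secretome-treated muscle. Among them, Cd3e was 0.539 ± 0.610 compared to 0.0419 ± 0.0525 CPM and Trac 0.371 ± 0.347 compared to 0.0651 ± 0.0727 CPM. Lef1 differed least, with 0.174 ± 0.161 compared to 0.149 ± 0.132 CPM. T cell genes were highest in Control 3 (30.8 CPM) and Control 6 (22.0 CPM), while Control 1, with the most Ms4a1, had 14.95 CPM. All 12 macrophage genes were tested and lay below 0, with a median of -0.48 (-0.75 within libraries 6 to 15) and 6 lower at an unadjusted p under 0.05, led by Csf1r (19.98 ± 7.23 compared to 11.8 ± 4.39 CPM, adjusted p = 0.150) and Adgre1 (5.99 ± 2.16 compared to 3.40 ± 1.33 CPM, adjusted p = 0.153). Their sum was 97.7 to 278 CPM in control and 64.6 to 218 CPM in secretome-treated muscle.

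All 8 adipocyte genes also lay below 0, with a median of -0.51 (-0.47 within libraries 6 to 15) and 2 lower at an unadjusted p under 0.05, Cfd (63.6 ± 40.8 compared to 34.9 ± 10.5 CPM, adjusted p = 0.180) and Lipe (35.2 ± 8.58 compared to 27.7 ± 5.34 CPM, adjusted p = 0.226). The adipocyte sum was highest in Control 4 (464 CPM) and Control 3 (275 CPM), and in Control 6, with the most Igkc, it was 167 CPM, within the 81.7 to 198 CPM of secretome-treated muscle. Red blood cell genes, a measure of blood left in the tissue, summed to 101 to 1377 CPM in control and 101 to 943 CPM in secretome-treated muscle, with 6 of 7 tested, a median of -0.54 (-0.13 within libraries 6 to 15) and 0 at an unadjusted p under 0.05. The highest were Control 3, with 1377 CPM of them and 1600 Igkc reads, and Secretome 8, with 943 CPM and 85 Igkc reads, while Control 1 and Control 6 had 233 and 221 CPM. Of these genes, Slc4a1 was 1.30 ± 1.25 compared to 0.690 ± 0.553 CPM (log2 fold change -0.89, and -1.41 within libraries 6 to 15, adjusted p = 0.327) and Hbb-bt 19.6 ± 25.2 compared to 8.86 ± 8.30 CPM (log2 fold change -1.14, and -0.17 within libraries 6 to 15, adjusted p = 0.368).

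Neutrophil genes summed to 5.38 to 111 CPM in control and 5.04 to 125 CPM in secretome-treated muscle, with 6 of 10 tested, a median of 0.40 (0.06 within libraries 6 to 15) and 0 at an unadjusted p under 0.05. Of them, S100a9 was 1.88 ± 2.28 compared to 4.84 ± 8.05 CPM (log2 fold change 1.37, and -0.0090 within that range, adjusted p = 0.446) and S100a8 1.43 ± 1.73 compared to 3.57 ± 5.90 CPM (log2 fold change 1.33, and 0.50 within that range, adjusted p = 0.454). Among genes of lymph node stroma and follicles, Glycam1 and Madcam1, which mark the vessels of lymph nodes and gut lymphoid tissue, had no read in any of the 20 muscles. Cr2, Fcer2a and Ccl19 had reads, 31, 29 and 19 in all, too few to be tested. The mean of each was lower in secretome-treated muscle. Cxcl13 was 3.32 ± 2.22 compared to 2.17 ± 1.37 CPM (adjusted p = 0.499), whereas Pdpn was 6.34 ± 4.32 compared to 6.66 ± 3.10 CPM (adjusted p = 0.925, both by the edgeR test). Of the 10 genes 5 were tested, with a median of -0.27 (-0.49 within libraries 6 to 15) and 1 lower at an unadjusted p under 0.05. That one was Ccl21a, and next came Clu (73.4 ± 22.2 compared to 61.8 ± 17.1 CPM, adjusted p = 0.473). The 8 muscle fibre genes had a median of 0.07, which turned to -0.08 within libraries 6 to 15, with 1 lower and 0 higher at an unadjusted p under 0.05, Pvalb (8611 ± 5251 compared to 5895 ± 1035 CPM, log2 fold change -0.55, turning to 0.08 within that range, adjusted p = 0.284) and Myh4 next (38157 ± 12894 compared to 48719 ± 6646 CPM, log2 fold change 0.35, and 0.05 within that range, adjusted p = 0.323). The part of T cells, macrophages, adipocytes or blood in the levels of the 9 genes was not tested beyond the relations above.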

How the data were processed

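The authors removed ribosomal RNA, prepared stranded paired libraries of 150 by 150 bases, and deposited whole-number counts of reads per gene for 20 quadriceps muscles without normalization. Per the labels' processing notes they used cutadapt 1.16, STAR 2.7.9a, featureCounts 1.6.3 and DESeq2 1.34.0 on GRCm39 (mm39). The strand setting and annotation release were not given in the sources used here. Treatment and replicate number came from the sample titles, and every mouse gave 1 library. Symbols were matched to 52083 of 55416 Ensembl identifiers, which held at least 98.6% of the reads of each library.

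Counts were filtered with filterByExpr, TMM-normalized and tested with the robust quasi-likelihood F-test of edgeR 4.0.16 in R 4.3.3, with no term but the treatment, and p-values were adjusted by Benjamini-Hochberg over all genes tested. Genes under the filter took their fold change from the same fit without it. Each standard error was derived from the log2 fold change and its F statistic (their ratio, F under the square root). The same fit was made within libraries 6 to 15. The 9 genes, the gene lists and the tests were chosen with earlier results of these data known, so no count over them is independent support. Named genes were the 9, all constant regions, the 3 heavy and 3 light variable segments with most reads, the 2 tested genes of smallest p in each list, and the 5 most like Igkc and Cd79b. Cd22, Pax5, Xbp1, Prdm1, Dnajb9, Tcf7, Cd247, Cd3e, Trac, Lef1, Glycam1, Madcam1, Cr2, Fcer2a, Ccl19, Cxcl13, Pdpn and the segments leading in a muscle were named besides. The procedure was tested on simulated data: of 14418 genes, 81 of 100 changed by a factor of 2 and 95 of 100 changed by a factor of 4 were recovered, and 10 unchanged genes were called. Apart from these changes, the simulated counts had a common mean per gene and no difference between ranges of library numbers. Those rates therefore do not describe how many changes the fit can find in the real muscles. Alternatives were DESeq2 1.42.0, RLE size factors, no filter, the replicate block, the 3 ranges of library numbers as a factor, each muscle left out in turn, other prior counts and scalings of the correlations, and other minimum counts. Replicate numbers did not pair the muscles: deviations of same-numbered muscles correlated at -0.24 to 0.22, over 0.1 in 2 of 10 pairs.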

Additional observations from a re-analysis of the deposited data

How the results depend on the processing

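All 168 fold changes of the 9 genes under the alternatives, over all muscles and within libraries 6 to 15, were below 0, and each moved by less than 1 SD between muscles. The genes were chosen by this difference and the alternatives refit the same counts, so the shared sign is no support. That SD, pooled over the treatments on log2 CPM, was wide, 2.42 for Igkc and 0.58 for Mzb1, so large shifts also stay under it. The 168 fold changes are unevenly spread over the genes. Igha, Cd79a, Cd79b, Ms4a1 and Cd72 did not pass the filter, so over all muscles DESeq2 was their only alternative. No fit without Control 7, which held 251 of the 427 Igha reads, gave a value for Igha. The count of called genes in the whole table was the less stable value. It was 1 over all muscles, 216 with DESeq2 (70 higher, 146 lower), 0 where the fit had a factor for the 3 library number ranges, and 0 to 15 with 1 muscle left out (15 without Control 5, and 0 without Control 6, Control 9 or Secretome 1, 4, 5, 6 or 7). Within libraries 6 to 15 it was 0, but 37 with DESeq2, 11 without a filter and 0 to 2 with 1 muscle left out (2 without Control 8). The cause was not tested.

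With the replicate block, 0 genes were called and the log2 fold change was -3.36 for Igkc, -0.77 for Ighm, -2.43 for Jchain and -0.62 for Mzb1. The numbers did not pair the muscles, and 0 of 10 controls correlated best with the secretome-treated muscle of its number. Leaving out 1 of the 20 muscles moved the fold change of Igkc between -4.23 and -3.69, and leaving out 1 of libraries 6 to 15 moved it within that range between -4.63 and -3.20, the smaller both without Control 6.

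The relations of Igkc past an adjusted p of 0.05 for Pearson's r by the permutation test, most of them with genes chosen from these same muscles and so no support, went in control from 5 to 2 without the 2 muscles farthest from its median and to 6 in the 6 controls above the gap, an alternative chosen after seeing the data, and in secretome-treated muscle from 0 to 1 without the 2 farthest. Counting a gene as found only from 5 reads moved Cd79a from 15 to 5 muscles, Cd79b from 20 to 13 and Ms4a1 from 13 to 6. Thinning to the smallest total moved Cd79a alone, to 13 muscles.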

Other observations

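The promoter table of RefSeq held 3 of the 9 genes, Cd72, Jchain and Cd79a. In the window from 250 bases before to 50 bases after the start, 0 of these 3 held the octamer ATGCAAAT and 0 held TCCCNNGGG, the form of the EBF site that was searched, on either strand. Of all 32851 promoters in the table, 1.74% held the octamer and 6.56% the other motif. Nothing is drawn from this about either factor.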
